A study of Mus musculus with 2 samples.

Results

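The 10 genes described here decide what a muscle fibre does with pyruvate and lactate. They encode the lactate dehydrogenase subunits (Ldha and Ldhb), the lactate carriers (Slc16a1 and Slc16a3), the mitochondrial pyruvate carrier (Mpc1 and Mpc2), the E1 subunits of pyruvate dehydrogenase (Pdha1 and Pdhb) and the kinases that switch that enzyme off (Pdk2 and Pdk4). They were chosen by name, and all 10 had reads, among 14675 annotated genes with a read in either library. The tissue was gastrocnemius, the calf muscle, of male B6CASTF1/J mice, a first-generation cross of the C57BL/6J and CAST/EiJ strains, at 2 months of age. Total RNA, 2 µg for each library, was read as long molecules. The labels name no treatment and no engineered allele. Replicate 1 and replicate 2 form the single group, so no condition was compared and no p-value was computed. The labels number the males differently but give them a single donor identifier, so the spread between the libraries may be in part technical.

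Pyruvate is the end of glycolysis and has several exits from it. Lactate dehydrogenase is a tetramer of A and B subunits that interconverts pyruvate and lactate, and the A subunit prevails in fast muscle while the B subunit prevails in heart and oxidative muscle. Lactate leaves or enters a fibre through monocarboxylate transporters, MCT4 (Slc16a3) being known for export from glycolytic fibres and MCT1 (Slc16a1) for uptake into oxidative ones. Pyruvate enters the mitochondrion through a heterodimer of MPC1 and MPC2, where the pyruvate dehydrogenase complex turns it into acetyl-CoA. Pyruvate dehydrogenase kinases phosphorylate the E1 alpha subunit and shut the complex down, and Pdk4 is known to be induced by fasting and fat use.

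The libraries held 1182747 reads (replicate 1) and 1480977 reads (replicate 2), of which 1107128 and 1402875 belonged to annotated genes other than spike-in RNAs. The muscle label was met by the markers: Acta1, the skeletal muscle actin, had 68197 and 74164 reads, and Ckm, muscle creatine kinase, had 80874 and 90068. Replicate 2 held more of all 10 slow fibre markers, with a median log2 difference of 1.29, and less of 11 of 13 fast fibre markers, with a median of -0.49. The median over all 8626 genes with at least 10 summed reads was 0.14. The reads carry no molecular identifiers, so each interval given here covers counting error only.

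The 10 genes together took 13139 reads in replicate 1 and 17198 in replicate 2, which is 1.19% and 1.23% of the reads of annotated genes. Ldha alone supplied 65.9% and 58.5% of those reads. Levels are given as reads per 1000000 reads of annotated genes (CPM), with the mean and SD over both libraries (n = 2). By mean level the order was Ldha, Slc16a3, Pdha1, Pdk2, Ldhb, Pdk4, Mpc1, Mpc2, Pdhb and Slc16a1. Only 3 of the 9 steps in that order were kept by both libraries with a mean log2 ratio over 2 SD from 0, namely Ldha above Slc16a3, Mpc2 above Pdhb and Pdhb above Slc16a1. From Slc16a3 down to Mpc2, no neighbours in the order differed beyond the spread. The order was also taken per kb of the leading annotated transcript, to see how far it depends on the scale. A long read covers a transcript from end to end or in part, and shorter molecules can be favoured. Division by length would add to such a favour, so the values per kb do not correct for it. Per kb, Ldha stayed first with 4722 ± 290 CPM per kb and Slc16a1 stayed last with 3.38 ± 1.60. Ldhb moved from place 5 to place 2 per kb, and Slc16a3, with a transcript of 4335 nt, moved from place 2 to place 7. On that scale 2 of 9 steps exceeded the spread, Ldha above Ldhb and Pdk4 above Slc16a1.

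**Figure D1:**
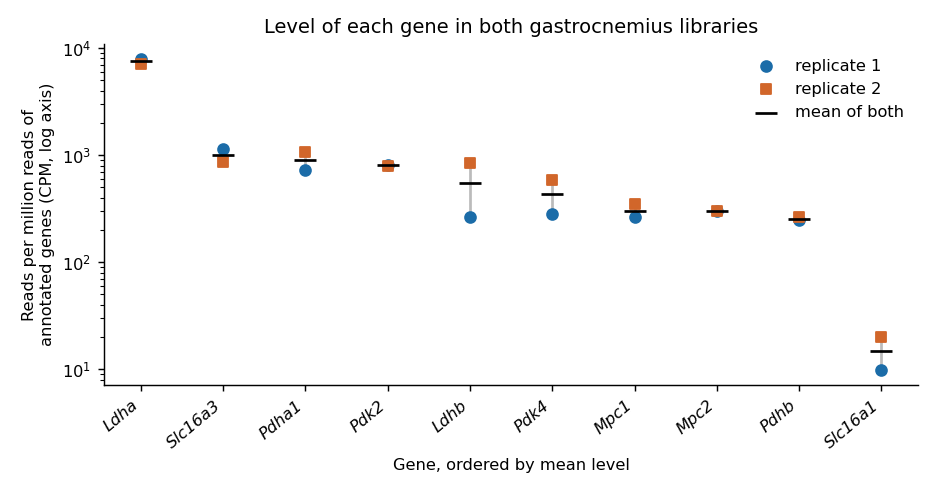
CPM of each gene in replicate 1 (circles) and replicate 2 (squares) on a log axis, with the mean of both as a bar. Ldha stands at 7825 and 7174 CPM, Slc16a1 at 9.94 and 20.0, and the widest gap between the libraries is that of Ldhb.

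Ldha, whose product makes up most lactate dehydrogenase of fast muscle, was the 13th most read gene of both libraries. Its gene lies at chr7:46841475-46855627 (plus strand, GRCm38 coordinates of GENCODE M21) and that of Ldhb at chr6:142490249-142507957 (minus strand). Ldha had 8663 reads in replicate 1 and 10064 in replicate 2, or 7825 and 7174 CPM (7499 ± 460). Replicate 2 was slightly lower, with a ratio of 0.917 (95% interval 0.891 to 0.944). Ldhb, the heart-type subunit, had 290 reads in replicate 1 and 1189 in replicate 2, or 262 and 848 CPM (555 ± 414). Ldhb was thus 3.24-fold higher in replicate 2 (interval 2.84 to 3.69), the widest difference among the 10 genes. Ldha made up 96.8% of lactate dehydrogenase reads in replicate 1 (Wilson 95% interval 96.4 to 97.1) and 89.4% in replicate 2 (88.9 to 90.0). Ldha prevailed in both libraries, while the Ldhb share went from 3.24% to 10.6%. Per kb of transcript, Ldha exceeded Ldhb 24.5-fold in replicate 1 and 6.95-fold in replicate 2. In bulk tissue, fewer fibres of a type and less RNA per fibre cannot be told apart, and this holds for each level given here.

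RefSeq lists more than a single start for Ldha, and the reads were set against both. The 250 bases upstream of the main start (chr7:46845554-46845803, plus strand, GRCm38.p6), of the downstream start (chr7:46846832-46847081, plus strand) and of the Ldhb start (chr6:142507958-142508207, minus strand) are shown because Ldha and Ldhb are the pair whose balance differed most between the libraries in fold. Capitals mark ACGTG on either strand, the core of the hypoxia response element.
Ldha main start: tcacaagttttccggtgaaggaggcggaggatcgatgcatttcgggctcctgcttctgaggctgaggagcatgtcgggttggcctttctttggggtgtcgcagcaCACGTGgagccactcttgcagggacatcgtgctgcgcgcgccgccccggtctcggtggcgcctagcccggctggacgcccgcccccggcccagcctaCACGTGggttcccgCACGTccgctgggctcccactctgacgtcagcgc
Ldha downstream start: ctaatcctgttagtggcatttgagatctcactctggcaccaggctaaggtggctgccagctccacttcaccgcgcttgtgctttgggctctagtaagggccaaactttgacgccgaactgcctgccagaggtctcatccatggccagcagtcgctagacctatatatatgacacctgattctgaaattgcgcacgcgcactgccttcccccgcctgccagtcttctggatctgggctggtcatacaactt
Ldhb start: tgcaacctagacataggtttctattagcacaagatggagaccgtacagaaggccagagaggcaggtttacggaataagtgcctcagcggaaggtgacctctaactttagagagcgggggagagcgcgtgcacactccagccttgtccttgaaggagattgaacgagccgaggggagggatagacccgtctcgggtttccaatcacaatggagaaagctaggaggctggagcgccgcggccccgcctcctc
Models whose first exon overlapped the 100 bases after the main Ldha start held 8402 of 8659 non-genomic reads in replicate 1 and 9824 of 10058 in replicate 2. The downstream start had 6 and 7 reads, so nearly all Ldha reads lay in models that use the first exon of the main start. Reads are counted per model, so this places the first exon and not the first base of each read. The window upstream of that start held ACGTG at 3 separate locations, of which 2 lie within CACGTG, the E-box, and match on both strands. It also held GGGCGG, the GC box, at 2 positions. Neither the downstream Ldha window nor the Ldhb window held any of these motifs. Of 32851 RefSeq promoter windows of that length, 16.6% held the hypoxia core, 32.7% the GC box and 6.02% the E-box on either strand. All 10 genes matched the promoter table with 13 windows, and 5 windows of 5 genes held the hypoxia core (Ldha, Slc16a3, Pdk2, Pdhb and Slc16a1). These matches describe the letters of the windows and were not tested against the levels.

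The Ldha reads were almost all of a single transcript form. Ldha-202, with 8 exons and 332 codons, held 96.4% of non-genomic Ldha reads in replicate 1 and 97.0% in replicate 2. The gene had 53 spliced chains of introns, 19 of them seen in both libraries, and 36 of the 53 were not in the annotation. Of the unannotated ones, 2 had at least 10 reads in both libraries. In the first, with 21 and 27 reads, the donor splice site of a coding exon lay 3 nt earlier, which leaves the reading frame intact and gives 331 codons. In the second, with 12 and 13 reads, a 108-nt untranslated exon (chr7:46847389-46847496) was added after the first exon. Ldhb-201, with 8 exons and 334 codons, led Ldhb with 261 of 287 reads (90.9%) and 1087 of 1189 (91.4%). That share moved by less than 1 percentage point between libraries in which the gene's level differed 3.24-fold. The most read unannotated Ldhb chain skipped a coding exon of 124 nt (chr6:142492493-142492616) with 4 and 20 reads. That exon was skipped in 1.42% of spanning reads in replicate 1 (interval 0.555 to 3.60) and 1.71% in replicate 2 (1.11 to 2.63), shares that do not differ beyond counting error. Skipping it shifts the frame and leaves 259 codons before a stop. Another Ldhb chain, with 3 and 7 reads, used a donor 36 nt earlier, which keeps the frame and gives 322 codons.

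The sequences at these Ldha and Ldhb sites are shown 5′ to 3′ on the strand of the gene, from the GENCODE M21 transcripts. Capitals mark the bases at the end of the exon that the unannotated chain leaves out, at chr7:46851032-46851058 for Ldha and chr6:142505412-142505471 for Ldhb, and the skipped Ldhb exon is given whole.
Ldha exon end: tcctgggagaacatggcgactccaGTG
Ldhb exon end: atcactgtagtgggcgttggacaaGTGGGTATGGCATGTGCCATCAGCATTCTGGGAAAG
Ldhb skipped exon: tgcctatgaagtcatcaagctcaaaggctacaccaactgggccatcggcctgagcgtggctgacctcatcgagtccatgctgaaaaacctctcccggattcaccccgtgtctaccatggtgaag
In both exon ends the bases left out begin with GT, the usual first letters of an intron.

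Among the lactate carriers, Slc16a3 (chr11:120948480-120960868, plus strand) was far above Slc16a1 (chr3:104638668-104658462, plus strand) in both libraries. Slc16a3, encoding MCT4, had 1267 reads in replicate 1 and 1199 in replicate 2, or 1144 and 855 CPM (1000 ± 205). It had the widest excess in replicate 1 among the 10 genes, 1.34-fold (interval 1.24 to 1.45). Slc16a1, encoding MCT1, had 11 and 28 reads, or 9.94 and 20.0 CPM (14.9 ± 7.09). Its ratio of 2.01 has an interval from 0.969 to 4.47, so a difference between the libraries was not detectable at this depth. Slc16a1 made up 0.861% of the reads of the pair in replicate 1 (interval 0.481 to 1.53) and 2.28% in replicate 2 (1.58 to 3.28). Bsg, encoding basigin, the chaperone that both carriers need at the membrane, had 1074 and 1289 reads, or 970 and 919 CPM.

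Slc16a3 was the member with the largest share of reads in a further annotated form. Slc16a3-208 held 76.4% and 74.8% of its non-genomic reads, and Slc16a3-202 held 12.9% and 14.3%. The forms differ by an untranslated exon of 95 nt (chr11:120954174-120954268) and by their annotated ends. That exon was skipped in 14.4% of spanning reads in replicate 1 (interval 12.5 to 16.5) and 16.1% in replicate 2 (14.1 to 18.4), and the intervals overlap. Slc16a3-202 has the same 470 codons as Slc16a3-208. A coding exon of 144 nt (chr11:120955799-120955942) was skipped in 0.908% and 1.49% of spanning reads, which keeps the frame and leaves 422 codons. All Slc16a1 reads belonged to Slc16a1-201 or to parts of it, 8 of 11 and 22 of 28 being full chains.

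The subunits of the mitochondrial pyruvate carrier are encoded by Mpc1 (chr17:8282904-8297661, plus strand) and Mpc2 (chr1:165460637-165481214, plus strand). Counted by the reads given to each gene's own models, they were at near equal levels. Mpc1 had 290 reads in replicate 1 and 485 in replicate 2, or 262 and 346 CPM (304 ± 59.2). Mpc2 had 334 and 420 reads, or 302 and 299 CPM (301 ± 1.62). Mpc1 made up 46.5% of the pair in replicate 1 (interval 42.6 to 50.4) and 53.6% in replicate 2 (50.3 to 56.8). The interval of replicate 1 includes equal shares, that of replicate 2 lies just above them, and the intervals overlap from 50.3 to 50.4%. A further 306 and 423 reads were given to a pseudogene copy of Mpc1, described below. With these added to Mpc1, its mean share of the pair was 66.2%. The near equality thus depends on where those reads belong, which was not tested. Mpc1 was 1.32-fold higher in replicate 2 (1.14 to 1.53), and the Mpc2 ratio was 0.992 (0.858 to 1.15). Per kb, Mpc1 over Mpc2 was 0.929 and 1.24. Mpc2 was nearly uniform, with 97.9% and 96.9% of its reads in Mpc2-201.

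Mpc1 was the only member whose leading form was not annotated. The leading chain held 274 of 287 non-genomic reads in replicate 1 (95.5%) and 468 of 483 in replicate 2 (96.9%). It equals the annotated Mpc1-208 without a coding exon of 4 nt (chr17:8293415-8293418). Across 4283 genes with at least 50 summed reads and a non-genomic model in both libraries, 5.95% had an unannotated chain as the most read model in both. No read included the 4-nt exon, while 277 and 474 reads spanned its place and skipped it. Mpc1-202, with 6 and 8 reads, has an exon of 81 nt that starts at the same base, so its splice acceptor was seen in use. The sequences around the exon are shown because the form of Mpc1 turns on these 4 bases, set in capitals. The first is the annotated transcript, the second the leading chain and the third Mpc1-ps, a processed pseudogene (chr12:110858565-110858894, minus strand) that carries the name of the gene.
Mpc1-208: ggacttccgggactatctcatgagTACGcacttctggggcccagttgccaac
Mpc1 leading chain: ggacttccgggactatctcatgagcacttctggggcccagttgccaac
Mpc1-ps: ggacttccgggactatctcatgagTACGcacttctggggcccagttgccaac
Read from the annotated start codon, Mpc1-208 has 109 codons before its stop. Without the 4 nt the frame changes after 23 shared codons and a stop follows after 42 codons in all.

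Mpc1-ps itself had 306 reads in replicate 1 and 423 in replicate 2, all in its annotated model of a single exon of 330 nt. Its sequence matches nucleotides 130 to 459 of Mpc1-208, the whole coding region with the stop codon, with 1 difference in 330 nt, G41A counted from the first base of the copy. It includes the 4 bases of the short exon without a gap on either side. Set base for base without a gap against the leading chain, which lacks them, the copy differs at 58 of 330 positions. That count reflects bases put out of step by the missing 4, and not how alike the sequences are. Outside those 4 bases the leading chain has the letters of Mpc1-208. The coding region of Mpc1-208 and the copy thus share nearly all their letters, and which locus the reads came from was not tested. Counting them with Mpc1 would raise its mean level from 304 to 593 CPM and its share of the pair to 66.2%. Among annotated transcripts, 33 copies of the 10 members (at least 85% identical over at least 200 nt) were found, 25 of them of Ldha, and Mpc1-ps was the only copy with reads.

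Exons this short had no including read in any gene with enough reads over them. Of the annotated internal exons of 4 nt, 5 had at least 20 spanning reads in each library, in Mpc1, Lrrfip1, Tnni1 and Zranb2, and none of the 5 had a read that included it. Tnni1, the slow fibre troponin I, had 120 and 380 reads skipping its 4-nt exon. Among exons present in every annotated transcript that spans them, 2 exons of 6 to 10 nt had 0 including reads against 5596 and 3762 skipping ones. Exons of 11 to 20 nt were mixed, 8 of 15 being included in under 10% of reads in each library. Exons of 21 to 30 nt had a median inclusion of 99.7% and 100%. The Mpc1 exon thus falls in a length range in which none of the exons scored had an including read, and whether it is absent from the RNA was not tested. Mpc1 is the only member with an internal exon under 36 nt in its leading annotated transcript. In the other members, the highest skipping apart from that of Slc16a3 and the Ldhb exon was 1.15%, in a 286-nt exon of Pdhb in replicate 1 (3 reads).

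**Figure D2:**
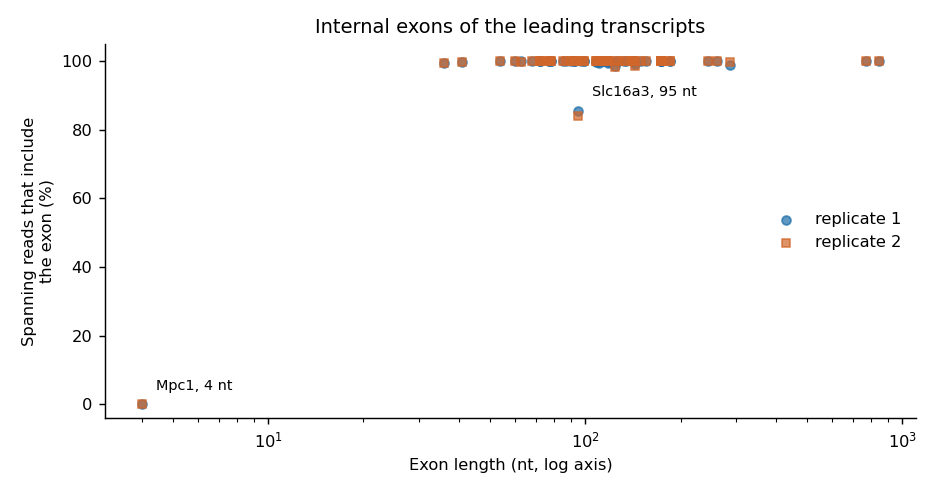
Share of spanning reads that include each internal exon of the members' leading annotated transcripts against exon length (log axis), in replicate 1 (circles) and replicate 2 (squares). The 4-nt exon of Mpc1 lies at 0% and the 95-nt exon of Slc16a3 at 85.6% and 83.9%, while the others lie at 98.3% or above.

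The E1 subunits of pyruvate dehydrogenase, Pdha1 (chrX:160122209-160138413, minus strand) and Pdhb (chr14:8165996-8173025, minus strand), were not read at equal levels. Pdha1, encoding the alpha subunit that carries the phosphorylation sites, had 799 reads in replicate 1 and 1507 in replicate 2, or 722 and 1074 CPM (898 ± 249). Pdhb, encoding the beta subunit, had 273 and 367 reads, or 247 and 262 CPM (254 ± 10.6). Pdha1 was higher in replicate 2 by 1.49-fold (interval 1.37 to 1.62), while the Pdhb ratio of 1.06 (0.905 to 1.25) does not exclude equality. Pdha1 made up 74.5% of the pair (71.8 to 77.1) and 80.4% (78.6 to 82.1). Per kb, Pdha1 exceeded Pdhb 1.55-fold and 2.18-fold, so the subunits were unequal on that scale too. Pdha1-201 held 94.8% and 96.1% of non-genomic Pdha1 reads and Pdhb-201 held 91.9% and 96.5% of those of Pdhb. The most read other Pdha1 chain, with 8 and 7 reads, joined annotated sites with a donor 4 nt later.

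Of the kinases, Pdk2 (chr11:95026258-95041354, minus strand) was nearly level between the libraries and Pdk4 (chr6:5483351-5496309, minus strand) was not. Pdk2, the widely expressed kinase, had 900 reads in replicate 1 and 1110 in replicate 2, or 813 and 791 CPM (802 ± 15.3), a ratio of 0.973 (0.891 to 1.06). Pdk4 had 312 and 829 reads, or 282 and 591 CPM (436 ± 219), a ratio of 2.10 (1.84 to 2.40). Pdk2 made up 74.3% of the pair in replicate 1 (71.7 to 76.6) and 57.2% in replicate 2 (55.0 to 59.4). Per kb, Pdk2 exceeded Pdk4 4.47-fold in replicate 1 and 2.08-fold in replicate 2. The leading forms were Pdk2-201 with 95.1% and 96.5% of non-genomic reads and Pdk4-201 with 94.0% and 94.2%. RefSeq starts of Pdk2 also differed in use: models with a first exon at the upstream start held 844 and 1047 reads, against 1 and 0 at the downstream start.

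**Figure D3:**
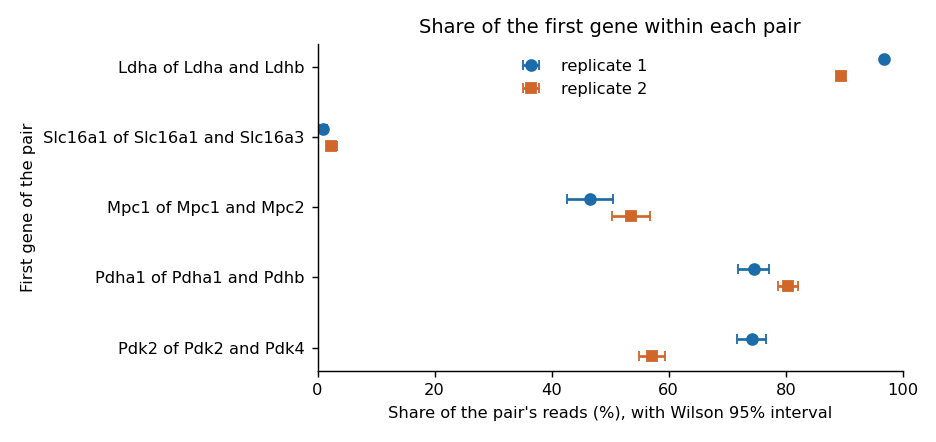
Share of reads of the first-named gene in each pair, in replicate 1 (circles) and replicate 2 (squares), with Wilson 95% intervals. Ldha holds 96.8% and 89.4% of its pair, Slc16a1 0.861% and 2.28%, and Pdk2 74.3% and 57.2%.

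Pdk4 was the only member with over 5% of its reads in the genomic class, meaning reads over the gene that match none of its junctions. These were 30 of 312 reads (9.62%, interval 6.82 to 13.4) and 76 of 829 (9.17%, 7.39 to 11.3), shares whose intervals overlap in libraries that differed 2.10-fold in level. The other members had at most 3.15% in this class. Over 5% in both libraries was found for 15.1% of 4283 genes, so such a share is not rare.

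**Figure D4:**
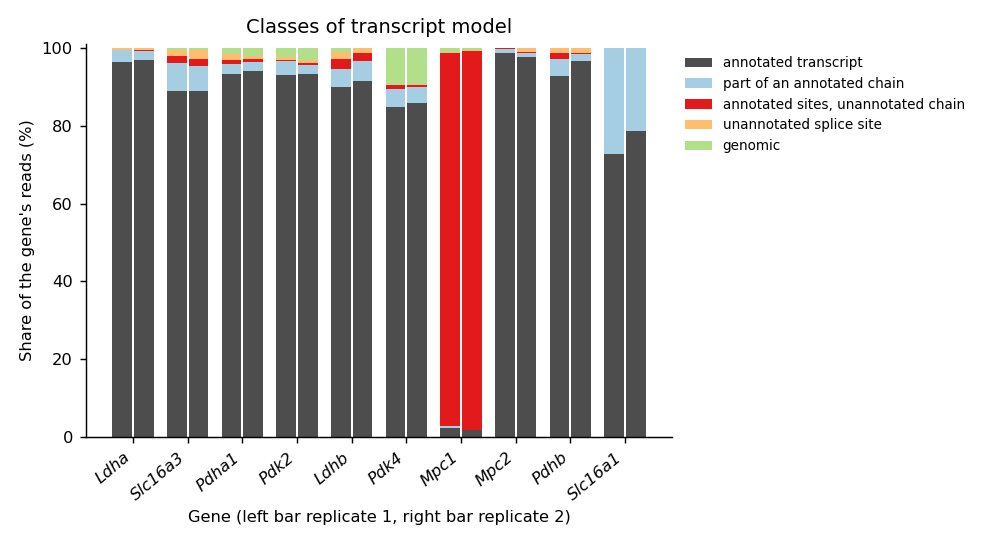
Share of each gene's reads by class of transcript model, replicate 1 in the left bar and replicate 2 in the right bar of each gene. Annotated transcripts lead in 9 genes, Mpc1 has 95.9% and 97.3% in unannotated chains of annotated sites, and Pdk4 has 9.62% and 9.17% in the genomic class.

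Between the libraries, the members differed in direction and size. At least 50 summed reads were reached by 9 of the 10 members, and 2 of the 9, Ldhb and Pdk4, were over 2-fold higher in replicate 2. Over all 4294 genes with as many reads, 4.01% were over 2-fold higher in replicate 2 and 0.536% in replicate 1. None of the 9 was over 2-fold higher in replicate 1, and Slc16a1, with a ratio of 2.01, had too few reads to be counted. Scaled by median-ratio size factors or TMM factors in place of totals, the Pdk4 difference was 0.97 or 0.98 on the log2 scale rather than 1.07, and only Ldhb stayed over 2-fold. The members' median log2 difference was 0.24, with 6 of 10 higher in replicate 2, against a share of 60.5% of all genes with at least 10 summed reads. That median was 0.09 over the members with at least 50 summed reads, 0.10 with annotated transcripts only and 0.14 with median-ratio factors, a scaling that lowers the log2 difference of every gene by 0.10. Over all genes, with totals and all models, the median was 0.14 with at least 10 reads and 0.11 with at least 50. The members' 0.24 lay above the first and their 0.09 below the second, so as a group they do not stand apart by it. For annotated transcripts only and for median-ratio factors, no median over all genes is given to compare with. Ldhb at 1.69 lay within the range of the slow fibre markers, from 0.85 (Myoz2) to 2.50 (Myh7, the slow myosin heavy chain, with 557 and 3982 reads). It also lay beside a fast fibre marker, Myh1, the IIx myosin heavy chain, which had 1370 and 5362 reads and a log2 difference of 1.63. Myh4, the IIb myosin heavy chain, was the other of the 13 fast markers that was higher in replicate 2, at 0.31. Slc16a3 at -0.42 lay near the fast fibre median of -0.49, and Ldha at -0.13 between that and 0. With 1 library against 1, a difference in fibre make-up of the pieces and a difference between males or preparations cannot be told apart, and the part of fibre type in the Ldhb and Pdk4 differences was not tested.

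**Figure D5:**
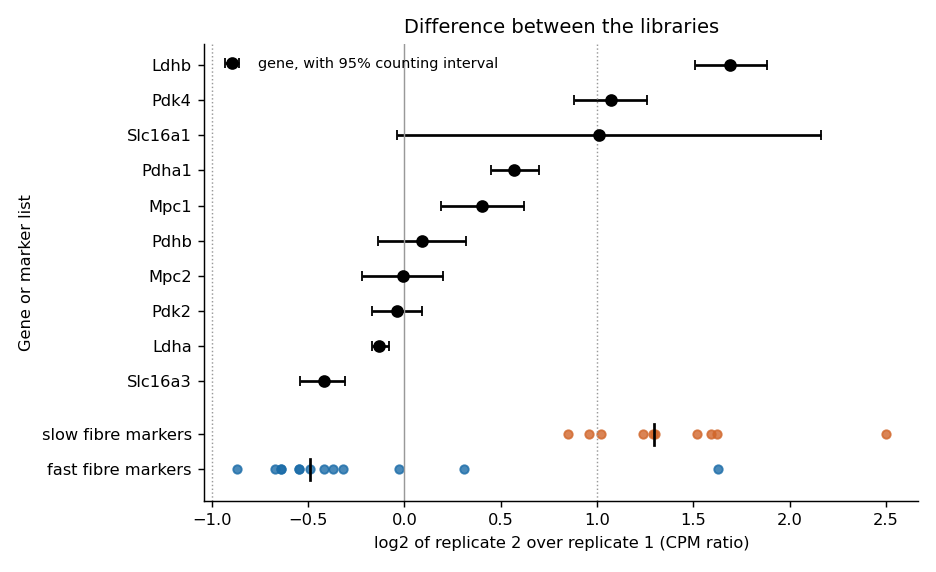
Log2 of the CPM ratio of replicate 2 over replicate 1 for each gene with its exact 95% counting interval, above the slow and fast fibre markers (1 point per gene, bar at the median). Ldhb and Pdk4 lie beyond the dotted line of a 2-fold difference with Slc16a1 at the line. Slc16a3 and Ldha lie below 0 with their whole intervals, and Pdk2 (-0.04) and Mpc2 (-0.01) with intervals that span 0.

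Markers of other cell types summed to far fewer reads than those of muscle. Among single genes, Gsn, Col1a1, Col3a1 and Dcn, counted as fibroblast markers, reached the levels of the least read muscle markers, with Col1a1 at 163 and 283 CPM beside Neb at 203 and 195. Of the adipocyte markers, Adipoq, Plin1 and Lep had 0 reads in both libraries, which allows up to 2.71 and 2.14 CPM. The list summed to 58.7 and 76.3 CPM, of which Fabp4 alone made up 45.2 and 73.4. Cfd, with 13 and 4 reads, went the other way, at 11.7 and 2.85 CPM. The 8 endothelial markers summed to 126 and 163 CPM, the 7 leukocyte markers to 37.0 and 42.1, with Cd68 at 0, the 6 smooth muscle and pericyte markers to 157 and 217, and the 6 nerve markers to 93.9 and 104. Vessel and nerve markers were thus somewhat higher in replicate 2. Erythroid markers summed to 171 and 110 CPM, with Slc4a1 at 0, and 4 of 4 with at least 10 reads were lower in replicate 2. The 7 fibroblast markers summed to 3233 and 2010 CPM, of which Gsn made up 2615 and 1314. The part of these cells in the members' levels was not tested.

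The other genes of pyruvate metabolism give the setting of the members. Of the 11 listed partners and regulators of pyruvate dehydrogenase, 9 had at least 10 summed reads, 7 of these were higher in replicate 2, none passed 2-fold, and the median log2 difference was 0.51. Over all genes with at least 10 summed reads, 60.5% were higher in replicate 2, 9.34% passed 2-fold in that direction and the median was 0.14, so the counts alone do not set the list apart. Dlat, the E2 core subunit, had 354 and 744 reads (1.66-fold), Dld, the E3 subunit, 177 and 320 (1.43-fold), and Pdhx, which tethers E3, 87 and 182 (1.65-fold). All 3 subunits had more CPM in replicate 2, as Pdha1 did, and differences between these ratios were not tested. Pdk1, another kinase, had 30 and 71 reads, Pdp1, a phosphatase that reactivates the complex, 62 and 111, and Lias, which makes its lipoyl group, 45 and 52. Of 12 further lactate and monocarboxylate genes only 4 reached 10 reads. Besides Bsg, these were Slc16a10 with 41 and 72 reads, Ldhd, the D-lactate dehydrogenase, with 35 and 49, and Emb, a basigin relative, with 13 and 13. The testis-type Ldhc had 0 reads in both libraries.

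Of 15 genes on other routes of pyruvate, 12 were measured, 9 were higher in replicate 2 and none passed 2-fold, with a median of 0.28, counts to be read against the same 60.5% and 9.34% over all genes. Pkm, the kinase that makes pyruvate, had 5386 and 5346 reads and was lower in replicate 2 (0.783-fold, 0.754 to 0.814). Mdh2 and Mdh1, the mitochondrial and cytosolic malate dehydrogenases, had 1090 and 1564 and 446 and 979 reads. Gpt2, which turns pyruvate into alanine, had 608 and 702 reads, Slc25a11, the oxoglutarate carrier, 373 and 614, and Me1, malic enzyme, 411 and 496. The cytosolic enzyme Mdh1 was 1.73-fold higher in replicate 2, whereas Mdh2 was 1.13-fold higher. Of 13 transcription regulators known for control of such genes, 11 were measured and 5 were over 2-fold higher in replicate 2, against 9.34% of all genes with at least 10 summed reads. Of the 5, Ppargc1a, Ppargc1b (5 and 18 reads) and Myc (2 and 9 reads, interval 0.735 to 33.8) had under 50 summed reads. Of the regulators with at least 50, Esrra and Esrrg passed and Klf15, Nr3c1 and Foxo1 did not. Over all genes with at least 50 summed reads, 4.01% passed in that direction. The list's median log2 difference was 0.55 with at least 10 summed reads and 0.13 with at least 50, beside 0.14 and 0.11 over all genes. Esrra, an orphan nuclear receptor that acts on mitochondrial genes and on Pdk4, had 202 and 669 reads (2.61-fold, 2.23 to 3.07), and its relative Esrrg had 16 and 83 (4.09-fold, 2.38 to 7.49). Ppargc1a, their coactivator, had 6 and 26 reads. Klf15 with 152 and 198 reads and Nr3c1, the glucocorticoid receptor, with 34 and 47 were nearly level, and Foxo1 had 34 and 27.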

How the data were processed

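Long-read RNA-seq of 2 gastrocnemius libraries was used. Per the file headers and each library's deposited notes, the authors aligned reads to mm10, assigned them with TALON to GENCODE M21 transcripts or unannotated models, and deposited whole-number read counts per model, not normalised. Of the aligner, its settings and read filters, nothing is stated in the labels or headers. Such steps can drop very short exons and can divide reads among near-identical copies.

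Counts were summed per gene name and library and divided by the reads of annotated genes without spike-in genes (CPM). A count of 0 allows up to 3 counts, which is 2.71 and 2.14 CPM. Shares have Wilson 95% intervals, and ratios of the libraries have exact conditional binomial 95% intervals, both for counting error only. Shares of transcript forms leave out genomic reads. Unannotated chains were matched by exact introns. An annotated exon was scored in reads of models that span it, with at least 20 such reads for counts over all genes. Copies were sought with blastn 2.17.0 among GENCODE transcripts, and promoters are from RefSeq (GRCm38.p6). The computation of ratios and intervals was checked on simulated counts with known folds. Those counts held counting error only, so the check does not reach the spread between the libraries. Python 3.11.15, scipy 1.17.1 and edgeR 4.0.16 (TMM factors only) were used.

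The named genes were the 10 members, up to 6 most read genes of each related list with those over 2-fold at 50 or more reads, and up to 4 most read models of a member with every unannotated chain of at least 10 reads in both libraries. Some smaller models were omitted to save space, and the few chains and exons named beyond it were chosen after their values were seen. The members, lists and rules were chosen with earlier results of these data known. Alternatives were other scalings, other read minimums and folds, annotated transcripts only, other treatments of genomic, nearby and pseudogene reads, levels per kb, a looser exon match and leaving out each library.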

Additional observations from a re-analysis of the deposited data

Results flagged for a closer look

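Reads on the strand opposite to 3 members fell outside the counts used above and numbered over 3 in each library, the count that 0 reads allows. Antisense models over Ldha had 5 reads in replicate 1 and 6 in replicate 2, and those over Slc16a3 had 9 and 6. Over Pdk4 they had 6 reads in replicate 1 and 53 in replicate 2. Of the latter, 52 belonged to a single unspliced model of 465 nt at the 3′ end of the gene (chr6:5483351-5483815), and the 6 reads of replicate 1 lay within the same stretch (chr6:5483484-5483814). Pdk4 itself had 312 and 829 reads. How the strand of unspliced reads was set is not given in the sources used here, and its part in these counts was not tested.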

How the results depend on the processing

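Of the values recomputed, none changed sign in a called difference. Scaling moved a count: over 2-fold differences numbered 1 member with median-ratio size factors and 1 with TMM factors, against 2 with totals. These scalings lowered each log2 difference by 0.10 and 0.09. The Mpc1 share of its pair was 2.11% with annotated transcripts only and 66.2% with the pseudogene reads added, against 46.5% and 53.6% in the libraries. The Mpc1 leading chain held 98.1% when models needed at least 3 reads, against 96.2%. Of the 10 places in the order of levels, 2 were kept per kb and 6 with annotated transcripts only, and leaving out each library kept 5 to 6. Exon shares stayed within the spread when exon ends could differ by up to 5 nt. Of the single-gene, single-list and single-chain values, 57 were counted as moved and 237 were not. List medians have no spread between the libraries. For them the shift of 0.10 by median-ratio factors counted as a move, and that of 0.09 by TMM factors did not. Ratios of the libraries have no value without either library, and depth leaves the Slc16a1 ratio undecided. No paired analysis was possible because the labels give a single group.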
